A study of Mus musculus with 28 samples.

Results

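Resting CD8 T cells of old mice were set against resting CD4 T cells of mice of the same age, with 3 arrays for each cell type, which are 6 of the 28 arrays of the series. The arrays were chosen by their labels and not by their values. All cells came from BALB/c mice. The old mice were 20 months old, and the young mice, used here only for comparison, were 4 months old. The sort used CD4 or CD8 together with CD44 and a second surface protein, which is CD62L in the sample titles. The labels conflict on that gate: every sample title gives low CD62L and high CD44, and other labels describe naive cells with little CD44. Cd44 itself lay at 2.21, 2.22 and 2.73 in the CD4 arrays and at 3.11, 3.18 and 2.83 in the CD8 arrays. Its difference was 0.65 ± 0.20 (SE, limma adjusted p = 0.068). Every sample carries the treatment label of antibodies against CD3 and CD28, and the arrays compared here are those labelled 0 h. Each RNA pool combined 4 separate sorts, and the 3 arrays of a group are labelled as replicates of a pool. Nothing in the labels says that they came from separate animals, so p-values measure only the spread between these arrays, which may be technical.

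The levels below are log2 signals relative to the 75th percentile of the array, so that 0 is the signal of a probe at that percentile. A difference is old CD8 minus old CD4 on that log2 scale, with its standard error. A gene is called higher or lower when its limma p, adjusted by Benjamini and Hochberg's method over all 19395 genes tested, was under 0.05.

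CD4 and CD8 are the co-receptors that bind class II and class I molecules of the major histocompatibility complex together with the T cell receptor. In the thymus the transcription factor ThPOK, encoded by Zbtb7b, directs cells to the helper CD4 lineage, and Runx3 directs them to the cytotoxic CD8 lineage. CD8 cells are known for granule proteases and for receptors shared with natural killer (NK) cells, and the CD4 lineage holds the regulatory T cells marked by Foxp3. With age the CD8 compartment of mice is known to come to hold many cells of memory phenotype.

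The promoters of 7 genes on which the results turn are shown first: the CD8 co-receptor gene, 5 genes of cytotoxic cells and NK receptors with large differences, and Foxp3. Each is the RefSeq window of 300 bases (250 before to 50 after the start of the gene) on GRCm38.p6, 5′ to 3′ on the strand of the gene. Capitals mark the letters TGTGGT, the core bound by RUNX factors, or their reverse complement ACCACA. The windows lie at chr6:71373177-71373476 (+ strand) for Cd8a, chr10:79688770-79689069 (+ strand) for Gzmm, chr6:129678924-129679223 (- strand) for Klrc1, chr6:129623815-129624114 (- strand) for Klrk1, chr7:43436888-43437187 (+ strand) for Nkg7, chr1:164935473-164935772 (- strand) for Xcl1 and chrX:7579426-7579725 (+ strand) for Foxp3. For Gzmm and Foxp3, which have 2 windows each in the table, the first is shown.
Cd8a: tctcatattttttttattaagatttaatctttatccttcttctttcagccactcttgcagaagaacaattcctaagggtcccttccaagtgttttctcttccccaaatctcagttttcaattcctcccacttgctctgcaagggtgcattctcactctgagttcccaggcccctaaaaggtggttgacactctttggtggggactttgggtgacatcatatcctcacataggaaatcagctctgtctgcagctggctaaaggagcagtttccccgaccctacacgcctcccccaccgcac
Gzmm: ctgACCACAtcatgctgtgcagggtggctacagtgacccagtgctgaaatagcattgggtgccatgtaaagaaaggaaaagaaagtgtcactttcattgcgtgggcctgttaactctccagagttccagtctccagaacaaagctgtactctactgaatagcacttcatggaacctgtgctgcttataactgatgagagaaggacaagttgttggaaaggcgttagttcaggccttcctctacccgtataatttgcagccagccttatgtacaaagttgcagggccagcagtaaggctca
Klrc1: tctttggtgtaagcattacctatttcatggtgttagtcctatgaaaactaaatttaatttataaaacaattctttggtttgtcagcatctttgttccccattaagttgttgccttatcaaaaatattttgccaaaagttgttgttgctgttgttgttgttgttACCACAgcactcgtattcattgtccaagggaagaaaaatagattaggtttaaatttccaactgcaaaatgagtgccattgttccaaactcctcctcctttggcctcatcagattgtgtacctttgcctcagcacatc
Klrk1: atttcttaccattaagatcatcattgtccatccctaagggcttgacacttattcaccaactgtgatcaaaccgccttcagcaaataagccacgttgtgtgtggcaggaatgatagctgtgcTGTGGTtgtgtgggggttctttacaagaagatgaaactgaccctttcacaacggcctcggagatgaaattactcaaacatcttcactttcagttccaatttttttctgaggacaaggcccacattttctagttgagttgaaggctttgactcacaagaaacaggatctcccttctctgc
Nkg7: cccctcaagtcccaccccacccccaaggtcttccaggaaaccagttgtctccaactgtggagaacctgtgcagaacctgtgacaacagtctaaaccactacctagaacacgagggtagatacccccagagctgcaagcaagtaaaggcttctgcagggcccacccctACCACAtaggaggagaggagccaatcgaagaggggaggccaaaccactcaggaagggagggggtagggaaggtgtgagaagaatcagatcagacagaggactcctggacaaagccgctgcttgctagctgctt
Xcl1: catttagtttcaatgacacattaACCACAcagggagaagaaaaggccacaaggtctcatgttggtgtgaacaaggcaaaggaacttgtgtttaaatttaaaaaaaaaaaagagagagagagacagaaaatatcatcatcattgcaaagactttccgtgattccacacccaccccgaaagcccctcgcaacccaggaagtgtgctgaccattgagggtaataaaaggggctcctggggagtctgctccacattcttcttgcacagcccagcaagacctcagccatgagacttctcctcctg
Foxp3: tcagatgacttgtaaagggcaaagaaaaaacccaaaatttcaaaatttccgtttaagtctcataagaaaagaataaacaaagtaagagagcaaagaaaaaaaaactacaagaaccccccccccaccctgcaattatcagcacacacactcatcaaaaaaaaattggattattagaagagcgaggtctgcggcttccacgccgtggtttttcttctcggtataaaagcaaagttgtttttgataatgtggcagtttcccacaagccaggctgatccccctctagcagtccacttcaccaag
The core letters were found in Gzmm, Klrc1, Klrk1, Nkg7 and Xcl1, with the first base 247, 87, 129, 83 and 227 bases before the start of the gene. They were not found in the windows shown for Cd8a and Foxp3. Of the 40 genes in the CD8 lineage list or the NK receptor list, 29 had a window, and 14 of these (48.3%) held the letters in at least 1 window. Of the 23 members called higher in CD8 cells 16 had a window, and 9 of these (56.25%) held the letters. The 5 genes shown with the letters are among these 9, so the display does not give the share among called members. Over all genes that RefSeq lists 18.9% did, among all windows 16.8%, and among the tested genes that had a window 15.8%. Over the 875 genes called higher in CD8 cells that had a window the share was 17.0%, and over the 439 called lower it was 15.5%. The letters AGGTGT, a core of T-box factors such as T-bet and Eomes, were in 1 of the 29 genes and in 15.7% of all genes that RefSeq lists. Of the regulatory T cell list 15 genes had a window, and 5 of these (33.3%) held the RUNX letters and 5 the T-box letters. Both strands were searched, and matches to the 2 motifs can overlap. Several of these receptor genes are copies of one another, so their windows are not independent.

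Between 21804 and 27446 probes were well above background on the CD4 arrays and between 22085 and 22661 on the CD8 arrays. Replicates 1 and 2 of each cell type lay together on a slide, and replicate 3 lay on another slide. No slide held both cell types. The standard deviation of log2 differences was 0.458 between the CD4 replicates 1 and 2 and 0.502 between those of CD8, against 1.21 and 1.21 to CD4 replicate 3 and 1.13 and 1.05 to CD8 replicate 3. Replicate 3 therefore stood apart from the other two in both cell types. The slides of replicates 1 and 2 were scanned on 1 day, and the slides of replicate 3 on 2 other days, the CD4 slide with another scanner and software version. Slide and cell type cannot be told apart within these arrays, and counts and adjusted p from a fit with slide as a random block are given beside many of the results.

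In order to find the genes that differ between the 2 lineages in old mice, 19395 genes were tested. Of these, 1227 (6.33%) were called higher and 835 (4.31%) lower in old CD8 cells. The difference was at least 4-fold for 362 of the higher and 227 of the lower genes, and at least 16-fold for 41 and 15. The median difference over all genes was 0.03. With slide as a random block 278 genes (1.43%) were called higher and 176 (0.907%) lower, all among the genes called without it. These shares over all genes, 6.33% and 4.31% or 1.43% and 0.907% with that block, belong beside the list counts below from these fits. A count near them is no result about the list. List counts from other fits have other shares beside them. Of all genes, 515 were called higher and 321 lower without old CD8 replicate 1, and 484 and 324 without replicate 2. Without old CD8 replicate 3 they were 1280 and 1216. Leaving out old CD4 replicate 1 gave 739 and 466, replicate 2 777 and 485, and replicate 3 1186 and 714. With median scaling 436 were higher and 671 lower. Leaving out old CD8 replicate 1 or 2 left 836 or 808 calls, and leaving out old CD4 replicate 1 or 2 left 1205 or 1262, against 2062 with all arrays. Without each of the 6 arrays in turn, 450 of the higher and 278 of the lower genes were called every time. Among genes called, 59.5% were higher in CD8 cells, against 39.4% of 1107 when arrays were scaled to their median and 75.1% of 4071 with normexp background correction, which moved the median of all genes by 0.23. Within the scan day that holds both cell types, where the replicates share a slide, 9682 genes were called, and 2029 of the 2062 calls were among them with the same sign. That fit uses replicates 1 and 2 of the same old arrays, so the shared calls are no independent support.

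The 12 genes with the largest and the 12 with the smallest difference are named next, with Cd4. All 25 genes passed the test also when each of the 6 arrays was left out. Apart from Cd4 they were taken from genes whose arrays do not overlap between the cell types, so the lack of overlap is no result. The arrays also did not overlap for 1226 of the 1227 genes called higher and 832 of the 835 called lower. For any called gene below it therefore adds nothing to the call.

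**Figure D1:**
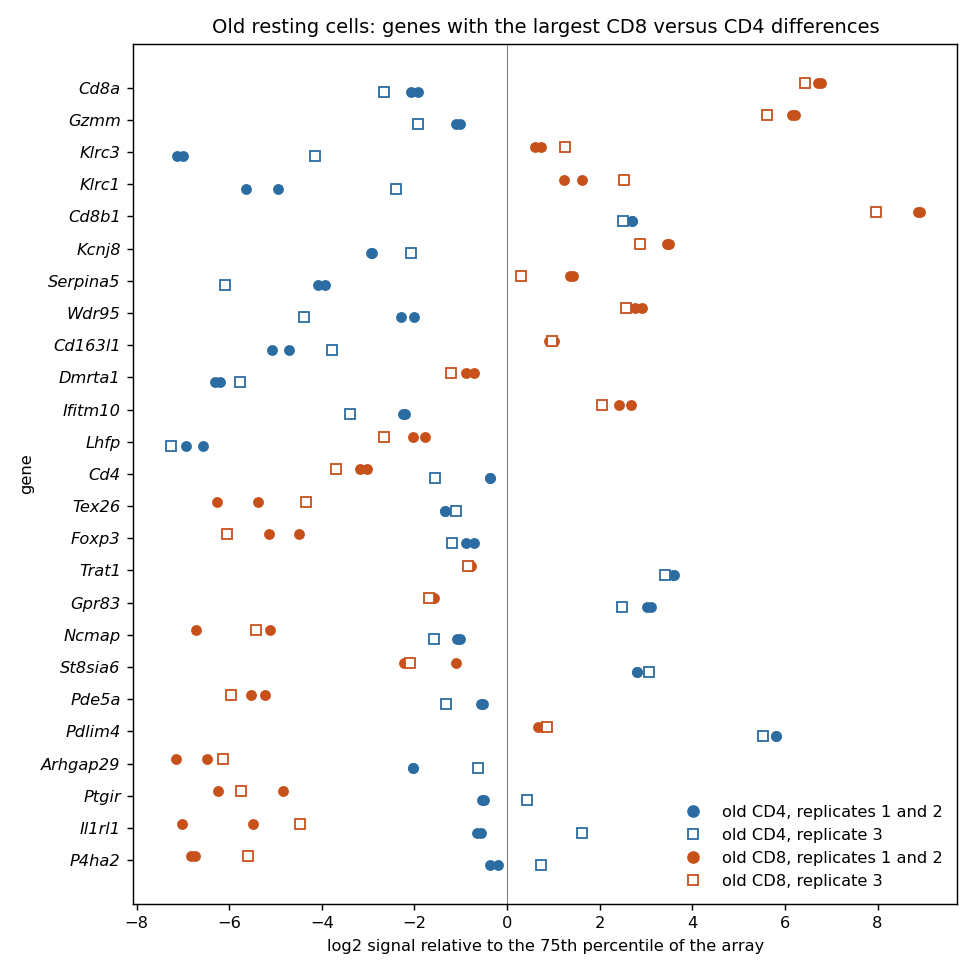
The horizontal axis gives the log2 signal relative to the 75th percentile of the array for Cd4 and the 12 genes with the largest and smallest differences (vertical axis), with 1 symbol per array. For every gene the 3 CD8 arrays (orange) lie to 1 side of the 3 CD4 arrays (blue), and the open squares mark replicate 3, which for Klrc1 lies at -2.40 in CD4 cells against -5.65 and -4.94 on the other arrays.

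The sorts were checked by the co-receptor genes. Cd8a, the alpha chain of CD8, lay at -1.92, -2.08 and -2.65 in the CD4 arrays and at 6.79, 6.71 and 6.44 in the CD8 arrays. The groups lay far apart, and the difference of 8.86 ± 0.28 is 466-fold (limma adjusted p = 6.7e-07). Cd8b1, the beta chain, lay at 2.70, 2.71 and 2.51 in the CD4 arrays and at 8.88, 8.92 and 7.96 in the CD8 arrays, a difference of 5.94 ± 0.29. The probe of Cd8b1 was thus above the 75th percentile in CD4 cells too, and its second probe differed by 0.05 between the cell types, so the probes disagree. Cd4 lay at -0.36, -0.37 and -1.56 in the CD4 arrays and at -3.18, -3.03 and -3.69 in the CD8 arrays. The groups did not overlap, and Cd4 was lower in CD8 cells by 5.82-fold (-2.54 ± 0.36, limma adjusted p = 0.0025), with a second probe at -5.17. Genes of the T cell receptor complex were well above background on all arrays. Cd3e was called higher (1.07 ± 0.26, limma adjusted p = 0.028) but not without any one array, while Cd3d differed by 0.90 ± 0.31, Cd3g by 0.27 ± 0.15 and Cd247 by -0.13 ± 0.14, and these 3 did not pass.

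The CD8 lineage list has 20 genes, of which 19 were tested. Of these 16 were higher in CD8 cells and none lower, and all 16 calls held without each array, 13 of them also with slide as a random block. The median difference of the list was 4.22, against 0.03 over all genes. The lists and their members were chosen with earlier results of these data known. The counts and medians of this list and of those below are therefore descriptions and no independent support. Gzmm encodes granzyme M, a protease of cytotoxic granules. It lay at -1.01, -1.10 and -1.92 in the CD4 arrays and at 6.16, 6.21 and 5.61 in the CD8 arrays. These ranges stand far apart, and Gzmm was 161-fold higher in CD8 cells (7.33 ± 0.26, limma adjusted p = 8.6e-07). Xcl1, a chemokine of cytotoxic cells that attracts cross-presenting dendritic cells, lay at -1.88, -1.81 and -2.67 against 3.13, 3.03 and 1.65, a difference of 4.73 ± 0.48. The 3 tested members that did not pass were Itgae at 1.80 ± 0.55 (limma adjusted p = 0.064), Tnfsf8 at 0.64 ± 0.58 and Mcoln3 at -0.07 ± 0.19. Because the samples are bulk RNA, fewer cells that express a gene and less of its RNA per cell cannot be told apart.

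Granule and death ligand genes are the machinery with which CD8 cells kill. Of 21 tested, 8 were higher in CD8 cells and none lower (3 and none with slide as a random block), with a median of 0.71. Besides Gzmm these included Nkg7, a granule membrane protein, at 3.83, 3.87 and 0.94 in the CD4 arrays and 7.78, 7.54 and 7.04 in the CD8 arrays (4.58 ± 0.66). The gap between the groups was wider on replicate 3 than on the others, and with slide as a random block the limma adjusted p of Nkg7 was 0.081. Ctsw, the cysteine protease cathepsin W, lay at 2.10, 2.14 and 1.03 against 6.14, 5.99 and 5.84, with a difference of 4.24 ± 0.29 (adjusted p = 3.7e-05). Serpinb6b, a serpin protease inhibitor, differed by 1.66 ± 0.19. Gzmb, the granzyme of activated killer cells, was called at 2.71 ± 0.70 (adjusted p = 0.038), but not without any one of old CD4 replicates 1 to 3 or old CD8 replicates 1 and 2, where its adjusted p was 0.072 to 0.14, and with slide as a random block it was 0.32. Ifng, the interferon made by effector cells, was called at 2.61 ± 0.70 (adjusted p = 0.043) and missed the threshold without any one array (0.076 to 0.098) and with slide as a random block (0.088). Gzma at 1.07 ± 0.70, Gzmk at 1.29 ± 0.57 and Gzmc at -0.00 ± 1.08 did not pass. Without old CD4 replicate 1 or 2, or old CD8 replicate 1 or 2, the list had 5 members higher.

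NK receptors are lectin-like and immunoglobulin-like proteins that raise or restrain killing, and CD8 cells acquire many of them with activation. Of 22 members tested, 11 were higher in CD8 cells and none lower, and the median difference was 2.96 (1.14 with normexp correction). The 9 of them that were also called without each array included 8 that passed with slide as a random block. The summed signal of the list, in units of the 75th percentile, was 9.40 to 11.5 on the CD4 arrays and 86.7 to 99.7 on the CD8 arrays. Without old CD4 replicate 3 the list had 16 members higher.

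Klrd1 encodes CD94, the common partner chain of the NKG2 receptors. It lay at 0.53, 0.61 and 1.65 in the CD4 arrays and at 5.65, 5.39 and 5.66 in the CD8 arrays, and was 24.9-fold higher in CD8 cells (4.64 ± 0.29, limma adjusted p = 2.2e-05). Klrc1 encodes NKG2A, the inhibitory partner of CD94. It lay at -5.65, -4.94 and -2.40 against 1.24, 1.61 and 2.51, with 1 of the 3 CD4 arrays above background, and differed by 6.12 ± 0.81. Klrc3, a close copy of Klrc1, lay at -7.12, -7.01 and -4.14 against 0.61, 0.73 and 1.25 (6.95 ± 0.76), also with 1 of the 3 CD4 arrays above background. In both genes the gap was smaller on replicate 3, where the CD4 array was the highest of its group. Klrk1 encodes NKG2D, an activating receptor for stress ligands, and lay at -5.92, -6.42 and -3.75 against -0.68, -0.74 and -0.63 (4.68 ± 0.62), again with 1 of the 3 CD4 arrays above background. The sizes of these differences rest in part on CD4 signals near background. Klrc2, a further copy, was above background on all CD8 arrays and on no CD4 array, so that it was at least 3.18-fold higher in CD8 cells (adjusted p = 0.0065). Klra6, a member of the Ly49 family, was at least 6.17-fold higher in the same sense (adjusted p = 0.00013), and Cd160, a receptor for HVEM, at least 6.50-fold (adjusted p = 0.00029). Such a bound divides the brighter group's mean by, for the other group, the mean over its arrays of the dimmest signal still above background there or of the probe itself where that was higher. The Klrc and Klra genes are near copies whose probes may share targets, so the identity of the copy is uncertain. Klrb1c (1.98 ± 0.61, adjusted p = 0.065), Klrg1 (0.94 ± 0.70) and Klra3 (3.16 ± 1.06, with 1 CD8 spot flagged and set to missing) did not pass. Ncr1, a defining marker of NK cells, lay at -5.24, -5.88 and -2.15 in the CD4 arrays and at -3.38, -3.40 and -3.26 in the CD8 arrays, which overlap, and its difference of 1.08 ± 0.82 did not pass (adjusted p = 0.42).

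Of 39 memory and effector genes tested, 16 were called higher in CD8 cells and none lower (8 and none with slide as a random block), with a median of 1.17, and 11 of the 16 were called without each array. S1pr5, a receptor for sphingosine-1-phosphate that guides effector cells out of tissues, lay at -4.97, -4.84 and -1.31 in the CD4 arrays and at 1.08, 1.16 and 0.88 in the CD8 arrays. The CD8 values agree closely while CD4 replicate 3 stands above its group, and the difference was 4.75 ± 0.88. Of the CD4 arrays 1 was above background for S1pr5, so that the size rests on signals near background. Ly6c1, a surface protein of central memory CD8 cells with a near copy in Ly6c2, differed by 4.22 ± 0.45, and Ctla2a, a cysteine protease inhibitor, by 3.98 ± 0.31. The chemokine receptors Cxcr6, which draws effector cells into tissues, and Cxcr3, the receptor for interferon-induced chemokines, differed by 4.16 ± 0.70 and 3.27 ± 0.43. Ccl5, a chemokine stored by memory CD8 cells, lay at 6.66, 6.66 and 4.78 against 8.78, 8.83 and 8.72 (2.75 ± 0.49). Ccl5 was therefore bright in both cell types and brighter in CD8 cells on every array. With slide as a random block its adjusted p was 0.16. Ccr2 (0.72 ± 0.91) and Il18r1 (0.76 ± 0.22) did not pass.

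Naive and quiescence genes gave no common direction. Of 24 tested, 3 were higher, 4 were lower (1 and none with slide as a random block) and the median was 0.05, which was below 0 with median scaling, normexp correction or 1 scan day. Ccr9, the gut-homing chemokine receptor, lay at -3.82, -2.98 and -3.69 in the CD4 arrays and at 0.69, 0.67 and 0.95 in the CD8 arrays, a 19.2-fold difference (4.26 ± 0.23, limma adjusted p = 1.3e-05). It was the only member of the list called without each array in the higher direction, and Igfbp4, a binding protein for insulin-like growth factors, the only one in the lower direction (-1.76 ± 0.33, with an adjusted p of 0.11 with slide as a random block). The other calls, of Klf2 and Npm3 (higher) and Lef1, S1pr1 and Tsc22d3 (lower), were lost without old CD8 replicate 1 or 2 (adjusted p 0.066 to 0.12), and the probes of Klf2 and of Lef1 disagreed in sign. Ccr7, Tcf7 and Il7r, which maintain naive and central memory cells, differed by 0.15 ± 0.38, -0.24 ± 0.19 and 0.07 ± 0.20 and did not pass.

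The transcription regulator list holds the factors that set these fates. Of 53 tested, 9 were higher and 5 lower (3 and 2 with slide as a random block). Tbx21, which encodes T-bet, lay at 0.87, 0.75 and 1.38 in the CD4 arrays and at 4.41, 4.58 and 4.75 in the CD8 arrays (3.58 ± 0.34, limma adjusted p = 0.00026). Eomes, the related T-box factor, lay at 0.83, 0.81 and -1.75 against 3.29, 3.36 and 2.95 (3.23 ± 0.57). Both were clear of the CD4 range, by more on replicate 3 for Eomes, whose adjusted p was 0.081 with slide as a random block. Runx3 was higher by 1.56 ± 0.27 (adjusted p = 0.0065, and 0.10 with slide as a random block), with values of 0.35, 0.41 and -0.69 against 1.57, 1.65 and 1.52. Its partner subunit Cbfb (0.28 ± 0.20) and its relative Runx1 (-0.60 ± 0.43) did not pass. Hopx, a cofactor of effector cells, and Runx2 were called at 4.54 ± 0.98 and 2.58 ± 0.56 but not without any one of replicates 1 and 2 of either cell type (adjusted p 0.055 to 0.074), and with slide as a random block theirs were 0.12 and 0.060. Without old CD4 replicate 2 or old CD8 replicate 1 or 2 the list had 5 members higher, and without old CD8 replicate 1 or 2 it had 2 lower. Of the factors called lower, Zbtb7b and Ikzf2 held without each array, and Lef1, Ets1 and Nfatc2 did not hold without old CD8 replicate 1 or 2.

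The CD4 lineage list had 7 of 16 members lower in CD8 cells and none higher, with a median of -0.59. Zbtb7b lay at 1.85, 1.82 and 1.17 in the CD4 arrays and at -0.60, -0.67 and -0.81 in the CD8 arrays, and was 4.94-fold lower in CD8 cells (-2.31 ± 0.23, limma adjusted p = 0.00036). Trat1, an adaptor of the T cell receptor complex, lay at 3.60, 3.58 and 3.42 against -0.79, -0.82 and -0.85. The values within each group lay close together, and Trat1 was 20.4-fold lower in CD8 cells (-4.35 ± 0.26). St8sia6, a sialyltransferase, lay at 2.80, 2.82 and 3.06 against -2.22, -1.10 and -2.09 (-4.70 ± 0.28). Tnfrsf4, the costimulatory receptor OX40, was lower by 2.95-fold. Cd40lg, the ligand with which helper cells stimulate B cells, was above background on all CD4 arrays and on no CD8 array, at least 2.74-fold lower in CD8 cells (adjusted p = 0.03). That call was lost without any one of the CD4 arrays or of old CD8 replicates 1 and 2 (adjusted p 0.064 to 0.12) and with slide as a random block (0.16). Gata3 (-0.74 ± 0.30), Tox (-0.29 ± 0.23) and Myb (0.53 ± 0.35) did not pass.

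Regulatory T cell genes were the list with the lowest median, -1.49 (-0.51 with normexp correction). Of 21 tested, 10 were lower in CD8 cells and none higher, 9 of the 10 also without each array and 8 of these with slide as a random block. Foxp3, the factor that defines the lineage, lay at -0.72, -0.89 and -1.18 in the CD4 arrays and at -4.49, -5.14 and -6.04 in the CD8 arrays, of which 1 was above background. It was lower in CD8 cells by 19.6-fold as measured (-4.29 ± 0.36, adjusted p = 0.00013). Gpr83, an orphan receptor of regulatory cells, lay at 3.12, 3.03 and 2.49 against -1.60, -1.58 and -1.68 (-4.50 ± 0.24). Il2ra encodes CD25, the high-affinity chain of the IL-2 receptor, and was above background on every CD4 array and no CD8 array, at least 10.05-fold lower in CD8 cells (adjusted p = 0.00012). Il1rl1, the receptor for IL-33, was at least 28.5-fold lower (adjusted p = 0.0055), from -0.57, -0.66 and 1.61 in the CD4 arrays to -7.03, -5.49 and -4.46 in the CD8 arrays. Ikzf2, which encodes Helios, lay at 0.44, 0.48 and 2.33 against -2.44, -2.12 and -2.28 (-3.36 ± 0.50), and Socs2, an inhibitor of cytokine signalling, differed by -2.77 ± 0.23. In all of these the CD8 arrays lay below every CD4 array, as they did for 832 of the 835 genes called lower. Foxp3, Gpr83 and Il1rl1 were also picked for it, so this is no result about the list. Ctla4 (-1.12 ± 0.46), Tnfrsf18 (-0.34 ± 0.23) and Ikzf4 (-1.46 ± 0.61) did not pass. Without old CD4 replicate 3 the list had 1 member higher and 9 lower, and its median was -0.89. Without old CD8 replicate 3 it had 2 higher and 9 lower.

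**Figure D2:**
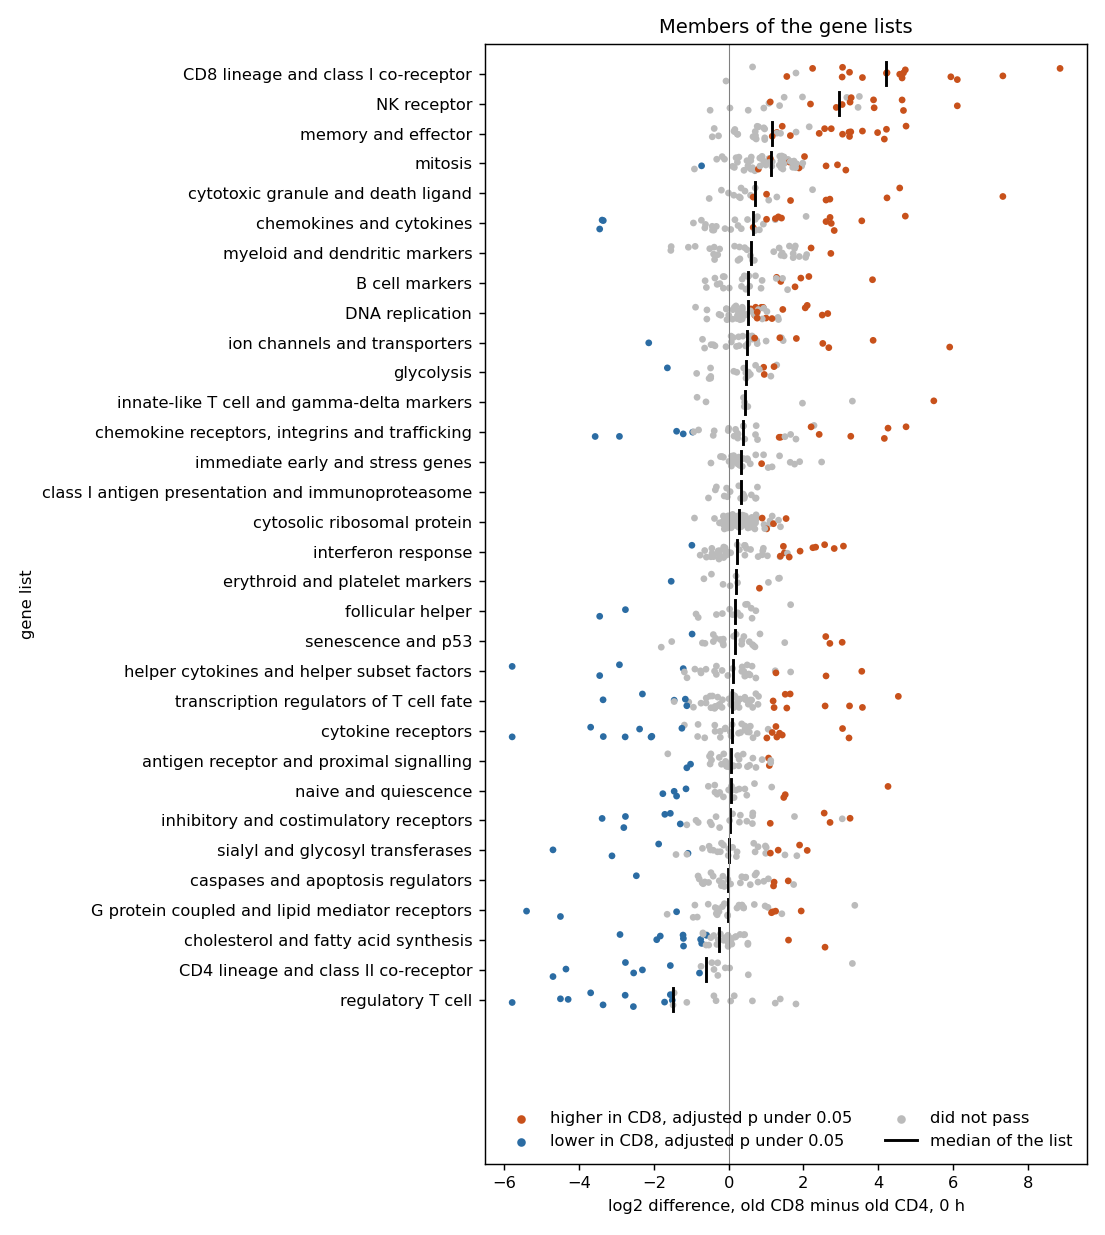
Each point is the log2 difference (horizontal axis, old CD8 minus old CD4 at 0 h) of 1 tested member of the 32 gene lists (vertical axis), coloured by its call, and the black bar is the median of the list. The CD8 lineage and NK receptor lists have the highest medians, 4.22 and 2.96, and the regulatory T cell list the lowest, -1.49.

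Several genes with large differences belong to neither lineage list. Kcnj8, a pore subunit of potassium channels gated by ATP, lay at -2.91, -2.94 and -2.08 in the CD4 arrays and at 3.49, 3.45 and 2.87 in the CD8 arrays, 60.2-fold higher in CD8 cells (5.91 ± 0.42, limma adjusted p = 4.4e-05). Ifitm10, of the interferon-induced transmembrane family, differed by 4.99 ± 0.33. Cd163l1, a scavenger receptor known from gamma-delta T cells, lay at -4.72, -5.07 and -3.78 against 1.01, 0.91 and 0.97 (5.49 ± 0.64), with 2 of the 3 CD4 arrays above background. Of the 9 tested genes in the list of innate-like and gamma-delta markers it was the only one called. Serpina5, an inhibitor of serine proteases, differed by 5.72 ± 0.66 with 2 of the 3 CD4 arrays above background, and Wdr95 by 5.64 ± 0.70, the latter with an adjusted p of 0.079 with slide as a random block. Dmrta1, of the DMRT family of transcription factors, was at least 18.5-fold higher and Lhfp, a tetraspan membrane protein, at least 7.98-fold higher, each above background on all CD8 arrays and no CD4 array (adjusted p = 0.00024 and 7.6e-05).

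On the CD4 side, P4ha2, a prolyl hydroxylase that acts on collagen, had the largest difference. It lay at -0.20, -0.36 and 0.74 in the CD4 arrays and at -6.82, -6.75 and -5.59 in the CD8 arrays, none of the latter above background, and was at least 27.2-fold lower in CD8 cells (limma adjusted p = 2.1e-05). Pdlim4, a protein that links to the actin cytoskeleton, was measured on all 6 arrays, at 5.81, 5.80 and 5.53 against 0.75, 0.67 and 0.87, and was 30.9-fold lower (-4.95 ± 0.27). Ptgir, the prostacyclin receptor, was at least 20.8-fold lower (adjusted p = 0.00032), although its other probe differed by -0.98. Pde5a, a phosphodiesterase that cleaves cyclic GMP, was at least 15.0-fold lower (adjusted p = 0.00074), Ncmap at least 11.0-fold (adjusted p = 0.00012) and Tex26 at least 10.9-fold (adjusted p = 0.0013), the last with another probe at -0.54. Arhgap29, a regulator of small GTPases, was at least 8.85-fold lower (adjusted p = 0.00012). For these 5 genes every CD4 array and no CD8 array was above background.

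Among receptors for cytokines, 8 of 41 tested were higher and 8 lower in CD8 cells (3 and 6 with slide as a random block). Il2rb, the shared chain of the IL-2 and IL-15 receptors, lay at 3.94, 3.99 and 3.38 in the CD4 arrays and at 6.98, 6.89 and 6.57 in the CD8 arrays, 8.27-fold higher in CD8 cells (3.05 ± 0.20, limma adjusted p = 3e-05). Il18rap, a chain of the IL-18 receptor, differed by 3.22 ± 0.41 and Il12rb1, a chain of the IL-12 receptor, by 1.29 ± 0.22. Cish, an inhibitor that cytokines induce, was lower by 5.21-fold, at 4.40, 4.40 and 5.34 against 2.30, 2.32 and 2.39 (-2.38 ± 0.25). Tgfbr3, a co-receptor for TGF-beta, differed by -2.08 ± 0.38. Il2ra and Il2rb thus differed in opposite directions between the cell types. With slide as a random block the adjusted p of Il12rb1 was 0.10 and that of Tgfbr3 0.12. The list had 4 members higher when old CD8 replicate 1 or 2 was left out. Il2rg (1.06 ± 0.34), Il4ra (0.65 ± 0.47) and Il6ra (0.50 ± 0.59) did not pass.

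Of the chemokine and cytokine genes, 11 of 35 tested were higher and 3 lower (3 and 2 with slide as a random block). Csf2, which encodes GM-CSF, was above background on all CD8 arrays and on no CD4 array, at least 4.25-fold higher in CD8 cells (limma adjusted p = 0.00039). Tnfsf14, the ligand LIGHT, lay at -0.02, 0.13 and 0.51 in the CD4 arrays and at 3.13, 3.18 and 2.45 in the CD8 arrays (2.71 ± 0.31). On the other side Csf1, the growth factor of macrophages, lay at -0.37, -0.37 and -0.21 against -3.44, -3.50 and -4.07 (-3.35 ± 0.30), and Il4, the cytokine of type 2 helper cells, at -1.45, -1.44 and -0.22 against -4.27, -4.37 and -4.82 (-3.45 ± 0.64). For Csf1 and for Il4, 2 of the 3 CD8 arrays were above background. The CD8 arrays thus lay above the CD4 arrays for Csf2 and Tnfsf14 and below them for Csf1 and Il4. Tnfsf11, the ligand RANKL, was called lower, but not without old CD4 replicate 3 or old CD8 replicate 1 or 2 (adjusted p 0.072 to 0.11) or with slide as a random block (0.090). Ccl3 (0.77 ± 0.76), Ccl4 (2.07 ± 0.79) and Ccl1 (0.06 ± 0.37) did not pass. The list had 6 members higher when old CD8 replicate 1 or 2 was left out.

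Genes of helper subsets had 3 of 31 members higher and 4 lower (1 and 2 with slide as a random block), and the follicular helper list 2 of 16 lower and none higher (1 lower with that block). Stat4, a signal transducer of IL-12, was called at 1.27 ± 0.26 but not without old CD4 replicate 1 or old CD8 replicate 1 or 2 (adjusted p 0.051 to 0.075), and with slide as a random block its adjusted p was 0.081. Ccr4, a receptor of type 2 helper and regulatory cells, was called lower but not without old CD4 replicate 3 or old CD8 replicate 1 (adjusted p 0.053 and 0.081, and 0.12 with the slide block). Ccr6, a receptor of IL-17 producing helper cells, was called lower but not without old CD4 replicate 3 or any one CD8 array (adjusted p 0.053 to 0.097, and 0.063 with the slide block). The helper list had 1 member higher without old CD4 replicate 1 or old CD8 replicate 1 or 2, and 2 lower without old CD4 replicate 3 or old CD8 replicate 1. Il5, Il13 and Il10 did not pass, and Il5 was not above background on any of the 6 arrays. The follicular list had 2 members higher and 2 lower without old CD8 replicate 3, and without any other array it had 1 lower.

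Inhibitory and costimulatory receptors split, with 4 of 27 higher and 6 lower (2 and 3 with slide as a random block), and their median of 0.03 changed sign with median scaling, normexp correction or the slide block. Cd226, an activating receptor paired against TIGIT, was higher by 2.16-fold. Cd200r1, an inhibitory receptor, lay at 0.02, -0.07 and 1.50 in the CD4 arrays and at -2.25, -2.26 and -2.44 in the CD8 arrays (-2.80 ± 0.37). Tnfrsf25, the receptor DR3, was lower by 3.26-fold (-1.71 ± 0.24) and Slamf1 by 2.45-fold (-1.29 ± 0.16). With slide as a random block the adjusted p of Cd226 was 0.15 and that of Tnfrsf25 0.069. Without old CD4 replicate 3 or old CD8 replicate 1 or 2 the list had 4 members lower. Lag3, an inhibitory receptor that binds class II molecules, was called at 2.56 ± 0.69 (adjusted p = 0.043) but not without any one of the CD4 arrays or old CD8 replicates 1 and 2 (0.060 to 0.15) or with slide as a random block (0.34). Pdcd1, which encodes PD-1, lay at 1.13, 1.13 and 0.56 against 1.45, 1.39 and 0.30, and its difference of 0.10 ± 0.30 did not pass, nor did that of Havcr2 (1.76 ± 0.79).

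Trafficking genes had 8 of 34 members higher and 5 lower (5 and 1 with slide as a random block). Besides Cxcr3, Cxcr6, Ccr9 and S1pr5 above, the beta-3 integrin gene Itgb3 showed the tightest difference, at 3.78, 3.82 and 3.70 in the CD4 arrays against 0.06, 0.14 and 0.39 in the CD8 arrays, 11.9-fold lower in CD8 cells (-3.57 ± 0.18, limma adjusted p = 9.4e-06). Ccr7 and Ccr3 did not pass. The list had 4 members higher and 1 lower without old CD8 replicate 1, while without old CD8 replicate 2 it had 4 and 2, and without any other array 3 lower.

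Genes that modify sugars on surface proteins had 4 of 31 members higher and 4 lower (3 and 3 with slide as a random block). That is 12.9% each way, beside 6.33% and 4.31% of all genes. St3gal6, a sialyltransferase that acts on selectin ligands, lay at 1.66, 1.68 and 1.97 in the CD4 arrays and at 3.92, 3.91 and 3.78 in the CD8 arrays (2.10 ± 0.15, limma adjusted p = 5.1e-05). B4galnt1 and St6galnac4 were higher by 3.73-fold and 2.51-fold. St3gal2 was lower by 3.66-fold, and B4galnt4, above background on no CD8 array, by at least 3.76-fold (adjusted p = 0.0016). Of the sialyltransferases that add to galactose, one was thus higher and another lower in CD8 cells, while St3gal1, St3gal3 and St3gal4 did not pass.

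Of the ion channel and transporter genes, 7 of 32 were higher and 1 lower (4 and 1 with slide as a random block). Aqp9, a channel for water and glycerol, lay at -5.28, -4.79 and -4.21 in the CD4 arrays and at -0.59, -0.66 and -1.43 in the CD8 arrays (3.87 ± 0.33), with 1 of the 3 CD4 arrays above background. P2rx7, a channel opened by extracellular ATP, lay at 3.12, 3.10 and 3.37 against 0.83, 0.88 and 1.48, and was 4.40-fold lower in CD8 cells (-2.14 ± 0.21, limma adjusted p = 0.00029). Kcna3, the potassium channel of effector memory T cells, did not pass at 1.46 ± 0.41 (adjusted p = 0.052). Of the G protein coupled receptors, 4 of 32 were higher and 3 lower (2 and 2 with that block): Cnr2, the cannabinoid receptor of immune cells, by 3.84-fold higher (1.94 ± 0.25), Gpr171 by 2.26-fold and Gpr174 by 2.21-fold, with Gpr83 and Ptgir lower as above. Without any one of replicates 1 and 2 of either cell type the channel list had 4 members higher and the receptor list 3 higher and 2 lower. The adjusted p of Gpr171 was 0.056 with slide as a random block.

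Genes of signalling by the T cell receptor gave 2 of 30 higher and 2 lower (none with slide as a random block). That is 6.67% each way, beside 6.33% and 4.31% of all genes, and none of these 4 calls held without old CD8 replicate 1. They were Ptpn6 and Cd3e (higher) and Nfatc2 and Pag1 (lower), and for Cd3e, Nfatc2 and Pag1 another probe of the gene had the opposite sign. The value of Nfatc2 was -1.12 with its brightest probe and 0.15 as the mean of its 4 probes (adjusted p = 0.56). None of the 17 tested genes of class I presentation and the immunoproteasome was called by limma, and none with slide or replicate number as a block, median scaling or normexp correction. An unadjusted limma p under 0.05 was found for 4 of the 17, beside 5628 of all 19395 genes tested. Within 1 scan day, where the replicates share a slide, 8 of the 17 were called higher and 2 lower, beside 5579 and 4103 of all 19393 genes. B2m (-0.12 ± 0.21), H2-K1 (-0.54 ± 0.29) and H2-D1 (0.27 ± 0.27, with CD8 replicate 3 missing) did not pass. Without old CD4 replicate 3 that list had 1 member higher.

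Of 52 DNA replication genes 15 were higher in CD8 cells and none lower (4 higher with median scaling). Their median was 0.53, beside 0.03 over all genes, and 44 of the 52 differences were above 0. Chaf1a, a subunit of the chromatin assembly factor, lay at -3.23, -3.08 and -2.63 in the CD4 arrays and at 0.20, -0.01 and -1.17 in the CD8 arrays (2.65 ± 0.33, limma adjusted p = 0.0011). Mcm10, which helps to load the replication fork, differed by 2.50 ± 0.47 and Gins2 by 1.45 ± 0.25, with adjusted p of 0.097 and 0.056 with slide as a random block, whereas Mcm2 (-0.06 ± 0.33), Mcm3 (0.37 ± 0.27) and Mcm4 (0.16 ± 0.18) did not pass. There were 6 calls without old CD8 replicate 1 or 2, without old CD4 replicate 1 or 2 there were 8 and 9, and with slide as a random block 1. Of 60 mitosis genes 8 were higher and 1 lower (2 and none with slide as a random block), with a median of 1.14 and 55 differences above 0. Racgap1, needed for cytokinesis, lay at -2.02, -1.87 and -1.72 against 0.93, 0.92 and 1.27 (2.91 ± 0.31), and Kif23, its partner motor, differed by 1.62 ± 0.19. Troap was at least 5.31-fold higher, on 2 of 3 CD8 arrays above background (adjusted p = 0.0088, and 0.080 with the slide block). Cdk1 (1.40 ± 0.70), Ccna2 (1.84 ± 0.55) and Ccnb1 (1.45 ± 0.59), which drive entry into mitosis, did not pass. The mitosis count of higher genes was 21 without old CD4 replicate 3, 17 without old CD8 replicate 3, 4 without old CD4 replicate 1 or 2 and 3 without old CD8 replicate 1 or 2. The summed signal of the mitosis list was 114 and 112 on CD4 replicates 1 and 2, 213 on CD4 replicate 3 and 147 to 166 on the CD8 arrays, so the groups overlapped.

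Of 47 interferon response genes, 10 were higher and 1 lower (2 and none with slide as a random block), with a median of 0.23. Mx1, an antiviral GTPase, lay at -4.07, -4.11 and -4.34 in the CD4 arrays and at -0.72, -0.87 and -1.72 in the CD8 arrays (3.07 ± 0.42, limma adjusted p = 0.0018). Oas3, an antiviral synthetase, differed by 2.33 ± 0.29, Ly6e by 2.25 ± 0.31 and Ifit3 by 1.91 ± 0.30. Oas3 and Ifit3 had an adjusted p of 0.064 and 0.12 with slide as a random block. Ifit1 (0.43 ± 0.36), Ifit2 (-0.44 ± 0.25) and Isg15 (1.38 ± 0.40) did not pass, and Iigp1, an immunity-related GTPase, was lower by 1.98-fold, a call lost without old CD8 replicate 2 (adjusted p = 0.055) and with the slide block (0.13). The summed signal of the list was 556 to 627 on the CD4 arrays and 526 to 634 on the CD8 arrays, and the groups overlapped. All 3 CD8 arrays lay above all CD4 arrays for 17 of the 47 members, beside 21.2% of all genes tested, and below them for 7, beside 16.3% of all genes. When old CD8 replicate 1 or 2 was left out, 5 were called higher.

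Cholesterol and fatty acid synthesis was lower in CD8 cells for 9 of 36 genes and higher for 2, with a median of -0.25. The enzymes Cyp51 and Msmo1, which remove methyl groups from sterols, differed by -1.83 ± 0.22 and -1.22 ± 0.22, and Idi1 of the isoprenoid pathway by -1.21 ± 0.22, the adjusted p of Msmo1 and of Idi1 being 0.14 with slide as a random block. Elovl6, which lengthens fatty acids, was higher by 3.03-fold. The kinases Mvk (-0.01 ± 0.17) and Pmvk (0.02 ± 0.15) did not pass. There were 4 calls lower without old CD8 replicate 1 or 2, or old CD4 replicate 2, and 2 with slide as a random block.

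Markers of other cells were followed on each array because a sort can hold some. Of 28 tested B cell markers 6 were higher in CD8 arrays and none lower, with a summed signal of 63.3, 62.7 and 80.1 on the CD4 arrays and 131, 137 and 93.7 on the CD8 arrays. The calls were Cd22, Cd74, H2-Ab1, H2-Eb1, Cd79b and Cd72, of which Cd72 alone held without each array (1.28 ± 0.20). Without old CD8 replicate 1 or 2 there was 1 call, without old CD4 replicate 1 or 2 there were 2, and with slide as a random block the adjusted p of the other 5 was 0.22 to 0.36. The defining markers Ms4a1 (-0.37 ± 0.56) and Cd79a (0.87 ± 0.47) did not pass. They were detected in both cell types, Cd79a on 2 of 3 CD4 arrays and on all CD8 arrays. The part of B cell RNA in the calls of Cd22, Cd74 and the class II genes was not tested. Of 34 myeloid and dendritic markers 2 were higher, Itgax and Clec9a, which is 5.88% beside 6.33% of all genes. Without any one of replicates 1 and 2 of either cell type neither was called. The summed signal of the 34 markers was 17.3 and 17.9 on CD4 replicates 1 and 2 and 259 on CD4 replicate 3, against 61.8, 60.6 and 211 on the CD8 arrays. Lyz2, the lysozyme of macrophages, lay at 2.40, 2.48 and 7.36 in the CD4 arrays and at 3.93, 4.01 and 5.18 in the CD8 arrays. The myeloid signal was thus highest on replicate 3 of both cell types, and its part in the spread of replicate 3 was not tested. Of 11 erythroid and platelet markers 1 was higher and 1 lower, and Hba-a1 differed by 0.04 ± 0.54, with another probe at -2.71.

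**Figure D3:**
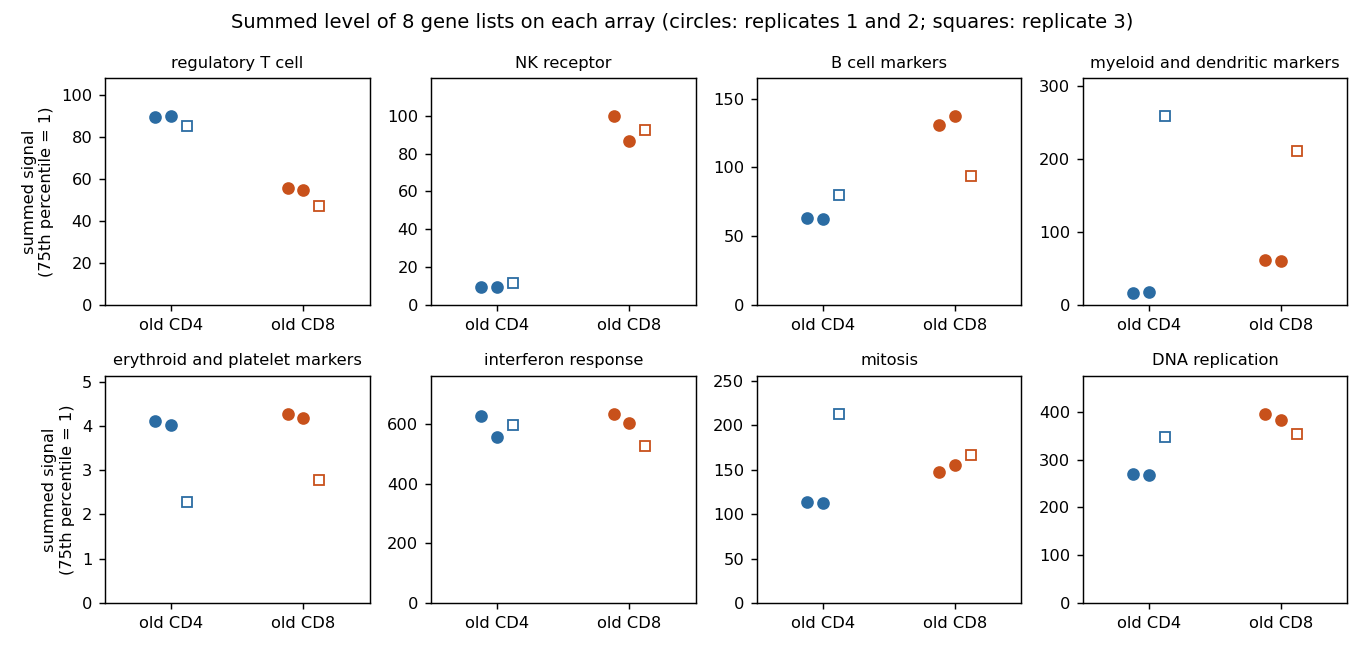
The vertical axes give the summed signal of all tested members of 8 gene lists on each array, as multiples of the 75th percentile of that array, for the old CD4 and old CD8 arrays at 0 h (circles are replicates 1 and 2, squares replicate 3). The NK receptor list lies at 9.40 to 11.5 on CD4 arrays and 86.7 to 99.7 on CD8 arrays, while the myeloid list reaches 259 on CD4 replicate 3.

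To see how far the lineage difference of old cells was also present in young cells, the same contrast was taken in the 3 young CD8 and 3 young CD4 arrays at 0 h. In the young, 461 genes (2.38%) were called higher in CD8 cells and 276 (1.42%) lower. Of the genes called higher in old CD8 cells 318 were also called higher in the young, which is 25.9% of the old list and 69.0% of the young one. For lower genes it was 179, or 21.4% and 64.9%. For the CD8 lineage list 14 of 19 were called higher in the young, for NK receptors 6 of 22 (median 1.34), and for regulatory T cell genes 11 of 21 were called lower. Cd8a differed by 9.55 in the young, Foxp3 by -4.57 and Trat1 by -3.12, each called. A call in one age and not in the other does not show that the ages differ, so the change of the difference with age was tested itself.

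Only 10 genes (0.0516%) passed that test, limma's contrast of old minus young of the CD8 versus CD4 difference, and in all 10 it was more positive in old cells; at an unadjusted p under 0.05 there were 2228. Gzmm lay at 1.62, 1.66 and 1.45 in young CD8 cells and at -2.21, -2.11 and -2.22 in young CD4 cells, against the old values above. Its difference was thus 3.76 in the young and 7.33 in the old, a change of 3.58 ± 0.37 (adjusted p = 0.011). Zbtb7b lay at -2.76, -3.09 and -2.87 in young CD8 cells and at 2.61, 2.48 and 2.05 in young CD4 cells. Its difference was -5.29 in the young and -2.31 in the old, a change of 2.98 ± 0.33 (adjusted p = 0.012), with old CD8 arrays above all young CD8 arrays. Fasl encodes the death ligand of cytotoxic cells, and lay at -2.58, -3.29 and -3.27 in young CD8 cells and at 0.53, 0.45 and 0.70 in old ones. In CD4 cells it lay at -0.52, -0.53 and -0.52 in the young and -0.23, -0.24 and 0.02 in the old, so that a difference of -2.52 in the young stood against 0.71 ± 0.21 in the old, which did not pass (adjusted p = 0.057). The change was 3.24 ± 0.30 (adjusted p = 0.011).

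Phlda3, a target of p53 that restrains Akt, differed by 2.60 ± 0.21 in the old and by -0.08 in the young, a change of 2.68 ± 0.30 (adjusted p = 0.012). Slc5a11, a transporter of inositol, differed by 3.09 ± 0.26 in the old against -0.52, a change of 3.61 ± 0.36. Lhfp passed too (adjusted p = 0.011), but at 0 h it was above background on the old CD8 arrays only, so that the size of its change is not known. Fn3k, an enzyme that removes sugar from glycated proteins, changed by 3.04 ± 0.38 and Apobr, a receptor for apolipoprotein B48, by 2.74 ± 0.35. Hs3st3b1, a heparan sulfate sulfotransferase, and Tafa3, a small secreted protein, changed by 2.19 ± 0.25 and 2.03 ± 0.22, and both were called with opposite signs in the 2 ages, 1.12 against -1.08 and 0.93 against -1.10, although with slide as a random block the old differences had adjusted p of 0.059 and 0.098. The 10 differences kept their sign in every setting that left out an array, but the number of calls went from 0 (without old CD8 replicate 1 or 2, young CD4 replicate 2 or young CD8 replicate 2) to 80 (without old CD8 replicate 3). It was 5 and 6 without old CD4 replicates 1 and 2, 40 without replicate 3, 3 and 29 without young CD4 replicates 1 and 3, and 19 and 6 without young CD8 replicates 1 and 3. With arrays scaled to their median none was called (limma adjusted p 0.089 to 0.53 for the 10, with 1197 genes at an unadjusted p under 0.05), and with slide as a random block 2318 were, the 10 among them. Old and young arrays of a cell type shared slides.

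**Figure D4:**
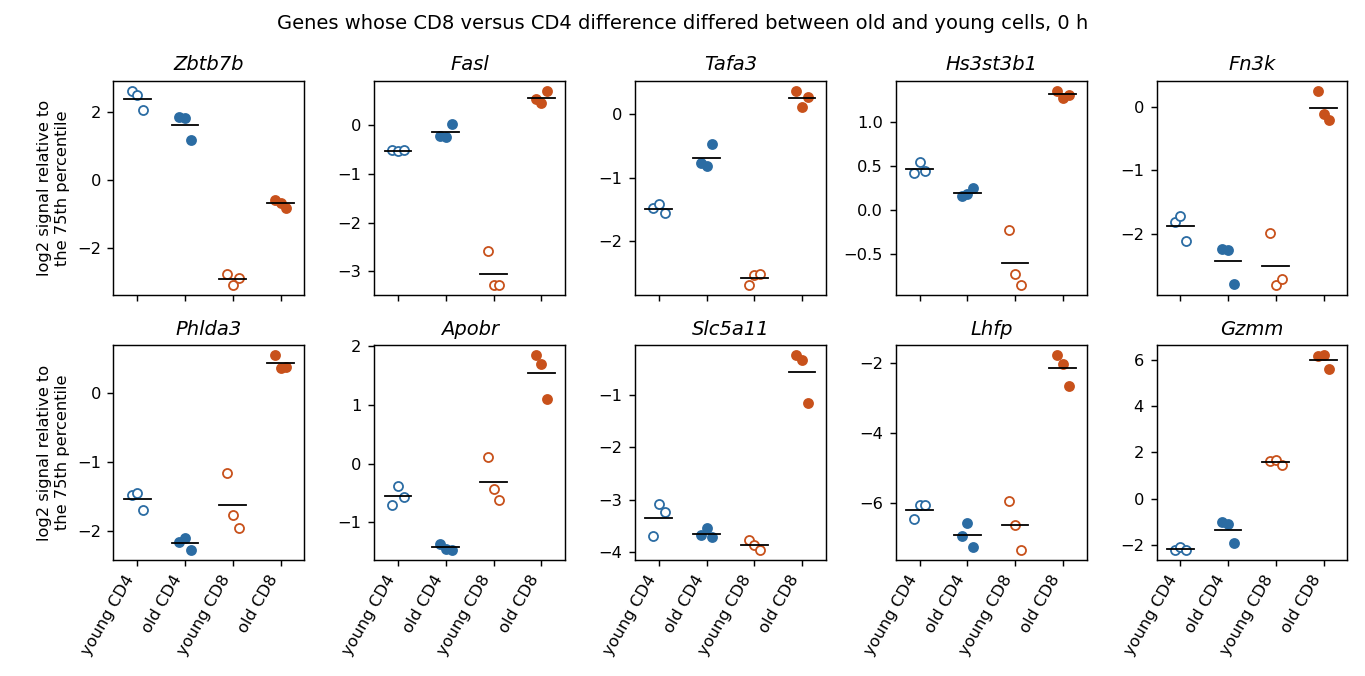
Each panel gives 1 of the 10 genes whose CD8 versus CD4 difference changed between ages, with the log2 signal relative to the 75th percentile on the vertical axis, 1 point per array at 0 h and the mean of the group as a line (open symbols young, filled symbols old). For Gzmm the old CD8 arrays lie between 5.61 and 6.21 and the young CD8 arrays between 1.45 and 1.66.

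Genes tied to senescence and p53 had 3 of 26 members higher in old CD8 cells and 1 lower. In addition to Phlda3 these were the cell cycle inhibitors Cdkn2a and Cdkn1a, each above background on 2 of 3 old CD8 arrays and on no old CD4 array, at least 2.56-fold and 2.06-fold higher (limma adjusted p = 0.0042 and 0.0063). The adjusted p of Cdkn2a was 0.066 with slide as a random block. Without old CD8 replicate 3 the list had 3 members lower, and without old CD4 replicate 1 or old CD8 replicate 1 or 2 none. Neither inhibitor was above background on any young CD8 array. Their change with age did not pass (adjusted p = 0.18 for Cdkn2a and 0.14 for Cdkn1a), nor did that of Csf2 (adjusted p = 0.054), which was above background at 0 h on the old CD8 arrays only. P2rx7 differed by -0.14 in the young against -2.14 in the old, which did not pass as a change either (adjusted p = 0.056). Klrc1 and S1pr5 changed by 3.49 ± 1.15 and 3.73 ± 1.24 (adjusted p = 0.31 for each). In this fit, which has no slide block, their larger difference in old cells could not be told from the spread between arrays. That spread includes differences between slides, which old and young arrays of a cell type shared. With slide as a random block 2318 genes passed the test of old minus young, against 10 without it. The changes in this paragraph that did not pass are given from the fit without that block only.

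After stimulation each old group had 1 array per time, which allows no test. At all 4 times the old CD4 array was read with another scanner and software version than the old CD8 array. The coefficient of variation between repeat spots was 4.16% on the CD4 array and 4.95% on the CD8 array at 4 h. At 12 to 72 h it was 19.8% to 23.4% on the CD4 arrays against 5.30% to 8.51% on the CD8 arrays. The part of scanner, software and spot variation in the values after stimulation, those at 4 h included, was not tested. The genes called at 0 h were followed by their direction alone, beside all genes tested. At 4 h, 91.7% of the genes called higher in CD8 cells still had a positive difference, against 59.7% of all genes, and 80.7% of those called lower had a negative one, against 40.3%. At 24 h these shares were 49.6% against 37.2% for the higher genes and 71.4% against 62.8% for the lower genes. The median over all genes was itself 0.29 at 4 h and -0.42 at 12 h, and scaling to the array median instead gave 82.5% against 44.4% for the higher genes at 4 h. At all 4 times 304 of 1173 higher genes (25.9%, against 8.38% of all genes) and 290 of 783 lower genes (37.0%, against 13.0%) kept their direction.

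**Figure D5:**
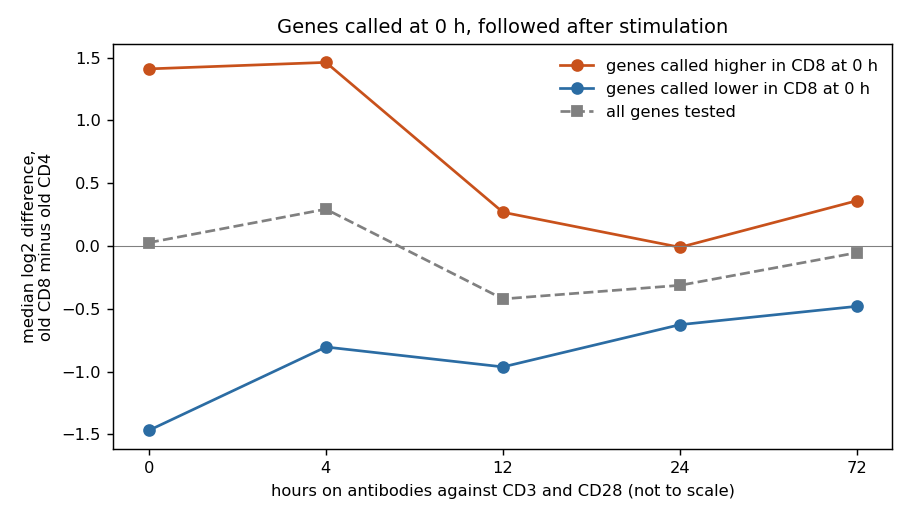
The vertical axis is the median log2 difference (old CD8 minus old CD4) of the genes called higher or lower at 0 h and of all genes tested, and the horizontal axis the time on antibodies against CD3 and CD28, with 1 array per cell type and time after 0 h. The median of the genes called higher falls from 1.41 at 0 h to -0.01 at 24 h, while that of the genes called lower goes from -1.47 to -0.63. The median of all genes tested moves from 0.03 to -0.31 between these times. Both sets were chosen by their 0 h values, so some loss of size after 0 h was built in.

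The medians of the lineage lists kept their sign at every time, though not every member did. The median of the CD8 lineage list was 3.50, 2.89, 3.08 and 4.67 at 4, 12, 24 and 72 h, and that of the regulatory T cell list -1.62, -1.89, -1.15 and -1.36. Cd8a differed by 8.93, 9.02, 7.87 and 8.08 at these times, and Klrd1 by 5.93, 5.16, 5.03 and 6.35. Tbx21, in contrast, differed by 3.58 at 0 h and by -0.55, -0.07, 0.36 and 0.68 after stimulation, whereas Eomes differed by 3.50, 4.73, 4.47 and 6.33. Il2ra, lower in CD8 cells at rest, differed by -0.05, 0.37, -1.40 and -0.56, and P4ha2 by -0.73, -2.26, -2.64 and -5.13. Trat1, Pdlim4 and St8sia6 had negative differences at all 4 times, the nearest to 0 being -3.03 for Trat1 at 24 h. Fasl, at 0.71 at rest, reached 3.89 at 72 h, and Lhfp, called higher at rest, differed by -1.82, 0.91, -0.58 and -1.66. The medians of the NK receptor list were 2.49, 0.71, 1.23 and 2.16, and those of the helper list -1.35, -2.59, -2.02 and -1.91 against 0.11 at rest.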

How the data were processed

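RNA of sorted cells was hybridised to one-colour Agilent mouse arrays, 28 in the series, of which the 6 old arrays at 0 h carry the comparison. Per the file headers, the deposited scanner files came from Agilent Feature Extraction 9.5.1.1 (10 arrays) or 10.1.1.1 (18 arrays), and hold a processed intensity per spot after background subtraction. Log2 of that intensity was taken minus log2 of the 75th percentile of the array. Control spots were left out, flagged spots were set to missing and repeat spots of a probe were averaged. Log2 values by the authors, centred per probe on a reference that stays unknown, were deposited too and were used as an alternative only. Of 27670 genes on the array, 19395 were tested, each by its brightest probe, after a filter that asked for a signal well above background on 3 or more of the 28. Names came from the accessions in the files through RefSeq's GRCm38.p6 gene list where they matched (22951 of 41174 probes by accession, 6659 by symbol and 3109 by synonym). The other 8455 are named as the file names them. The model was fitted in limma 3.58.1 under R 4.3.3, using lmFit with eBayes, over the 12 arrays at 0 h in 4 groups, with Benjamini-Hochberg adjustment. It was tested on simulated data whose arrays were drawn independently of one another. In the real data the consensus correlation within slides was 0.686, so the simulation cannot show how often genes are called falsely here. Other steps used the R package data.table (version 1.17.8), Python 3.11.15, pandas 2.3.3, numpy 2.4.6 and matplotlib 3.10.9.

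The members and lists were chosen with earlier results of these data known. Named genes are the co-receptor genes, the 12 largest and 12 smallest differences among called genes that do not overlap and are above background on all arrays of the brighter group, up to 6 called members of each list in each direction with up to 3 that did not pass, and the genes of the test of old minus young. Clone names and receptor segments were skipped. The 7 genes of the promoter display were picked after their values were seen. Deviations of same-numbered CD4 and CD8 arrays from their group means correlated at 0.24, 0.11 and 0.27, each over 0.1, which by the rule set for this counts as pairing. The main fit has no replicate block, so its differences, standard errors and adjusted p are unpaired. A fit with replicate number as a block was run as an alternative only. Arrays of different number reached 0.26 (CD4 2 with CD8 1) and 0.12 (CD4 1 with CD8 2), so the values do not single out the numbers, and replicate 3 stood apart in both cell types. Alternatives were other scalings, background corrections, filters on dim probes, blocks, and each array left out. The number of arrays limits the precision. Stimulated arrays were not replicated and were not tested. Some members of the lists are counted but not reported here by name.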

Additional observations from a re-analysis of the deposited data

Results flagged for a closer look

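In 10 genes the CD8 versus CD4 difference itself differed between old and young cells by limma's test of old minus young (adjusted p under 0.05, 3 arrays per group). The change was 5.22 for Lhfp, 3.61 for Slc5a11, 3.58 for Gzmm and 3.24 for Fasl on the log2 scale (adjusted p = 0.011 for each). It was 3.04 for Fn3k (adjusted p = 0.026), 2.98 for Zbtb7b, 2.68 for Phlda3 and 2.03 for Tafa3 (0.012 for each), 2.74 for Apobr (0.029) and 2.19 for Hs3st3b1 (0.016). For Lhfp no array of the other 3 groups was above background, so its value is no measure of size. In 12 settings that each left out 1 array, the calls were made 8 times for Lhfp, Slc5a11 and Fasl, 7 for Gzmm, 6 for Zbtb7b, 5 for Phlda3 and 4 for each of the other genes.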

How the results depend on the processing

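The count of 2062 genes called between old CD8 and CD4 cells was 1107 with median scaling, 4071 with normexp correction, 1296 without the filter on dim probes, 912 in the 6 old arrays alone, 454 with slide as a random block and 3747 with scanner and software version as a block. Alternatives chosen after seeing the data gave 419 (the 6 old arrays with the replicate block), 6373 (scan day as a block), 9682 (1 scan day) and 3544 (1 software version). Leaving out 1 of the 6 arrays gave 808 to 2496. Quantile normalization (2214), the filter over 12 arrays (2386), kept spots (2047), the mean of all probes (2131) and the authors' values (2050) moved it by less than 1.5 times. The 10 genes of old minus young became 0 with median scaling, 17 with quantile normalization, 36 with normexp correction, 6 without the filter, 21 with the filter over 12 arrays, 2318 with slide as a random block, 444 with the scanner block, 2615 with scan day as a block and 5730 within 1 scan day, and 0 to 80 with 1 array left out. The replicate block gave 2227 and 7 calls. Among the young CD8 arrays it was replicate 1 that shared a slide with old CD8 replicate 3. Young replicates 2 and 3 shared one with old replicates 1 and 2. The block by replicate number therefore does not follow slide or scan day in the young CD8 arrays. Among the named genes it ended 10 calls (adjusted p 0.050 to 0.070: Nfatc2, Gzmb, Klf2, Itgax, Itga6, Cdca5, Cdc25b, H2-Eb1, Cd79b and Slc4a1) and added 4 (0.020 to 0.043: Itgae, Il18r1, Isg15 and Kcna2). Slide as a random block ended 83 of the 166 calls of named genes, and 107 of the 166 held without each of the 6 arrays. Nfatc2 changed sign, to 0.15 (limma adjusted p = 0.56), with the mean of its probes. The causes were not tested. With 3 arrays per cell type, and probes near background in 144 genes called higher and 183 called lower that were above it on no array of the dimmer group, the folds of dim genes are bounds.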

Other observations

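Among lists not described above, glycolysis had 3 of 21 members higher in old CD8 cells and 1 lower, with a median of 0.47 (none higher and 1 lower with slide as a random block). Ldhb, a subunit of lactate dehydrogenase, lay at 4.83, 4.83 and 4.18 in the CD4 arrays and at 2.87, 2.67 and 3.38 in the CD8 arrays, and was lower in CD8 cells (-1.64 ± 0.26, limma adjusted p = 0.0041). Slc16a1, which carries lactate, differed by 0.94 ± 0.16, with an adjusted p of 0.085 with slide as a random block. Pgam1 and Tpi1, enzymes of the pathway, were called higher but not without every array (highest adjusted p 0.084 and 0.14). Without any one of replicates 1 and 2 of either cell type the list had 1 member higher, and without old CD4 replicate 3 it had 2 higher and 2 lower.

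Apoptosis regulators had 3 of 31 members higher and 1 lower (1 and none with slide as a random block). That is 9.68% and 3.23%, beside 6.33% and 4.31% of all genes. Bid, a protein that links caspases to mitochondria, lay at 0.42, 0.43 and -0.18 in the CD4 arrays and at 1.51, 1.41 and 1.39 in the CD8 arrays (1.22 ± 0.19, limma adjusted p = 0.0039). Of 75 ribosomal protein genes 4 were higher and none lower (1 higher with slide as a random block). Their median was 0.27, beside 0.03 over all genes, and 61 differences were above 0. The summed signal of the list was 26187 to 28648 on the CD4 arrays and 26575 to 33884 on the CD8 arrays, and the groups overlapped. The share called higher was 5.33%, beside 6.33% of all genes. Rps26 differed by 1.54 ± 0.33, and without old CD8 replicate 1 or 2 none of the 75 was called, nor with median scaling. With all arrays 21 of the 75 had an unadjusted limma p under 0.05, beside 5628 of all 19395 genes tested. Of 30 immediate early genes Myc alone was called (0.88 ± 0.20, adjusted p = 0.024), and not without old CD8 replicate 1 or 2. Fos lay at 0.54, 0.48 and 3.92 in the CD4 arrays and at 2.33, 2.45 and 3.35 in the CD8 arrays, so replicate 3 was the highest in both cell types.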
